A study of Mus musculus with 12 samples.

Results

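The genes described here are 10 members of the HPS, BLOC and AP-3 families, out of 21887 protein-coding genes on the assembled mouse chromosomes. They were chosen by name, with earlier results of these data known, so the counts of called members describe these genes and are no independent evidence. A gene was counted as called in a library when the summit of a USF2 peak lay within 1000 bp of either end of its annotated RefSeq span. USF2 is a basic helix-loop-helix leucine zipper transcription factor that binds the E-box, a short palindromic DNA motif. It was mapped by chromatin immunoprecipitation and sequencing (ChIP-seq, the sequencing of DNA pulled down with an antibody) in wild-type mouse embryonic fibroblasts (MEFs). The groups used were 2 libraries of glucose-starved cells and 2 libraries of cells in normal culture, among the 12 samples of the series. All 4 came from genotypically wild-type cells, and the length of starvation and the origin of the replicates are not given in the sources used here, so the spread between 2 libraries may be technical. Peak lists hold no expression values, so the fibroblast identity of the cells was not checked with markers.

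HPS proteins are named after Hermansky-Pudlak syndrome, an inherited disorder of pigmentation and platelet function. All of the 10 members but Ap3b1, which belongs to AP-3, encode subunits of the biogenesis of lysosome-related organelles complexes BLOC-1, BLOC-2 and BLOC-3. BLOC-1 helps to form the tubules through which endosomes send cargo to maturing organelles, BLOC-2 directs such carriers to their target, and BLOC-3 activates the Rab GTPases Rab32 and Rab38. AP-3 is an adaptor coat that sorts membrane proteins from endosomes towards lysosomes and melanosomes. Fibroblasts have lysosomes and endosomes but not the melanosomes and platelet granules for which these genes are best known.

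USF2 peaks were found at 6 of the 10 genes, against 4.05% of all protein-coding genes in at least 1 list. Hps1 of BLOC-3, Hps5 of BLOC-2 and Bloc1s3 of BLOC-1 were called in all 4 lists (3 of 10, against 1.13% of all protein-coding genes). Bloc1s1 and Dtnbp1, both of BLOC-1, were called in 3 lists each, and Hps3 of BLOC-2 in the 2 starved lists. Hps4, Hps6, Bloc1s2 and Ap3b1 had no peak at an end or inside the gene in any list. Every called peak had its summit nearer to the annotated start of its gene than to the far end, at most 376 bp from that start. The peaks of Dtnbp1 did not reach the start and lay wholly inside the gene, while those of the other called genes covered it. Among all called protein-coding genes with a known strand, the summit was nearer to the start than to the other end in 93.1% and 92.8% for the starved lists and in 90.2% and 90.7% for the normal lists.

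The E-box CACGTG was present in the RefSeq promoter window of 5 of the 6 called genes and of none of the 4 uncalled ones. Among all protein-coding genes with a window, 47.7% of the 721 called in at least 1 list held it. Of those called in no list 7.24% did, so 0 of 4 is near that background and says nothing particular about these genes. These windows span 250 bases before and 50 from the start of a transcript on, all 10 genes had one, and the letters are the same on both strands. The sites are shown because every called gene but Dtnbp1 holds at least 1 of them. Each is given 5′ to 3′ on the minus strand, which is the coding strand of all 5 genes, from RefSeq sequence of GRCm38.p6, with the E-box in capitals. Hps1 is at chr19:42779962-42779991, Hps3 at chr3:20035308-20035337, Bloc1s1 at chr10:128923518-128923547 and Bloc1s3 at chr7:19508361-19508390. The sites of Hps5 are at chr7:46796091-46796120 and chr7:46796056-46796085.
Hps1: atgtggctgagtCACGTGtcctacccggaa
Hps3: ggtcgcagcgctCACGTGatccggagcagc
Hps5, upstream site: gggcgctgagggCACGTGaccggaaacgcc
Hps5, downstream site: gggcctccggagCACGTGaccaccaccgcg
Bloc1s1, both sites: gcgtCACGTGatactgcgatCACGTGacgc
Bloc1s3: cataactcggctCACGTGacgctgcgagag

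The flanks of these E-boxes varied. In Hps3, Bloc1s3 and both sites of Bloc1s1 the E-box stands between a T and an A (TCACGTGA, which is again its own reverse complement). Hps1 has T before it and T after it, and both Hps5 sites have G before and A after. TCACGTGA occurred in 3 of the 10 member genes, in 1.41% of 17492 protein-coding genes with a promoter window and in 38.3% of the 196 such genes called in all 4 lists. The longer GTCACGTG, read on either strand and overlapping the E-box, was found in Hps1, Hps5, Bloc1s1 and Bloc1s3, in 3.19% of protein-coding genes and in 61.2% of those called in all 4 lists. Both of these motifs were chosen after the sequences had been seen.

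Seen over the genome, CACGTG was in 7.15% of 32851 promoter windows and in 8.91% of the protein-coding genes with a window. It was in 145 of the 196 genes called in all 4 lists (74%) and in 7.24% of 16771 genes called in none. Of the 10 members 5 held it, and Hps5 and Bloc1s1 held 2 copies each, which 0.863% of protein-coding genes and 30.1% of those called in all 4 lists also did. Of the 7 E-boxes of the members, 5 had their centre within 50 bp of the transcript start of the promoter window. At genes called in all 4 lists 57.3% of 220 E-boxes did, and at genes called in none 36.2% of 1305. The 2 E-boxes of Hps5 did not, but its annotated gene span begins upstream of that transcript start (46796065 against 46795881). These E-boxes, at chr7:46796068-46796073 and chr7:46796103-46796108, lie nearer to the span start, so the count for the members depends on the start used. A match of letters describes the window and does not show that USF2 binds there.

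**Figure D1:**
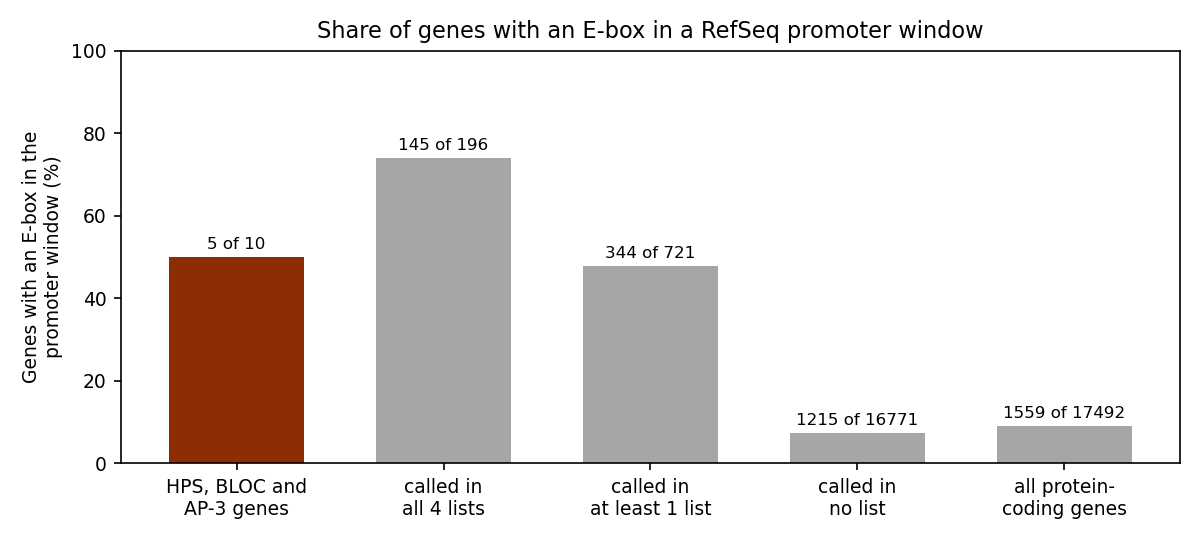
Share of genes (vertical axis, percent) whose RefSeq promoter window holds the E-box, for the 10 HPS, BLOC and AP-3 genes and for protein-coding genes grouped by how many USF2 lists call them. The members stand at 50% (5 of 10), between the 74% of genes called in all 4 lists and the 7.24% of genes called in none.

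The lists differ in size and make. They held 825 and 1186 peaks in starved libraries 1 and 2, and 1645 and 2124 in normal libraries 1 and 2. The fold enrichment, which is the authors' value of the read pileup at a summit over its local background, had a median of 5.54 and 5.30 in the starved and 5.46 and 5.46 in the normal lists. The narrowest peak was 306 bp wide in the starved and 152 bp in the normal lists, so the 2 conditions were called with different widths. The median pileup was 8 and 6 reads in the starved and 5 and 6 reads in the normal lists, which limits what 1 weak peak can show. Total read depth is not known from peak lists, and the lowest local background was 0.131 and 0.133 reads in the starved lists and 0.0979 reads in both normal lists. Fold enrichments and ranks are therefore read within a list and not compared between conditions.

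Hps1 encodes a subunit of BLOC-3, the exchange factor that switches on Rab32 and Rab38, and had the best rank by q-value among the member genes in each of the 4 lists. Its annotated span is chr19:42755190-42780015. Fold enrichment was 11.4 and 14.8 in the starved lists, and 17.0 and 16.4 in the normal lists. The peak ranked 41 of 825 and 25 of 1186 by q-value in the starved lists, and 25 of 1645 and 30 of 2124 in the normal lists, with −log10 q of 21.6 and 25.4 in the starved and 30.1 and 28.6 in the normal lists. Thus it belonged to the top 4.97% and 2.11% of the starved lists and to the top 1.52% and 1.41% of the normal lists. The pileups recovered from these values were 30 and 27 reads in the starved and 29 and 28 reads in the normal libraries, over local backgrounds of 1.73 and 0.894 reads in the starved and 0.767 reads in both normal libraries. The 4 pileups lay close together, and the background of starved library 1 was the highest of the 4. Since depth is unknown and peak widths differ, this is not read as equal binding in the 2 conditions. The summits of the 4 lists fell within 29 bp of each other and between 3.5 and 25.5 bp from the centre of the E-box, which straddles the transcript start. Hps4, which encodes the partner of Hps1 in BLOC-3, had no call, and its promoter windows held no CACGTG.

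The promoter of Hps1 is shown from 250 bases upstream to the end of the E-box (chr19:42779974-42780228, minus strand), with the E-box in capitals.
Hps1: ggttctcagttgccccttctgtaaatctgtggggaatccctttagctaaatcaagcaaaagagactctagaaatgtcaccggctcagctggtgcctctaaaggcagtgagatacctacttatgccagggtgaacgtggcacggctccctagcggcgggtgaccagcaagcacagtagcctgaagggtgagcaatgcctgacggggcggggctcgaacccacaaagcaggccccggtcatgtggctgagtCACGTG
A long non-coding RNA gene on the opposite strand, Gm16244, overlaps this start, and its own start lay 941 and 958 bp from the starved summits and 969 and 970 bp from the normal summits.

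**Figure D2:**
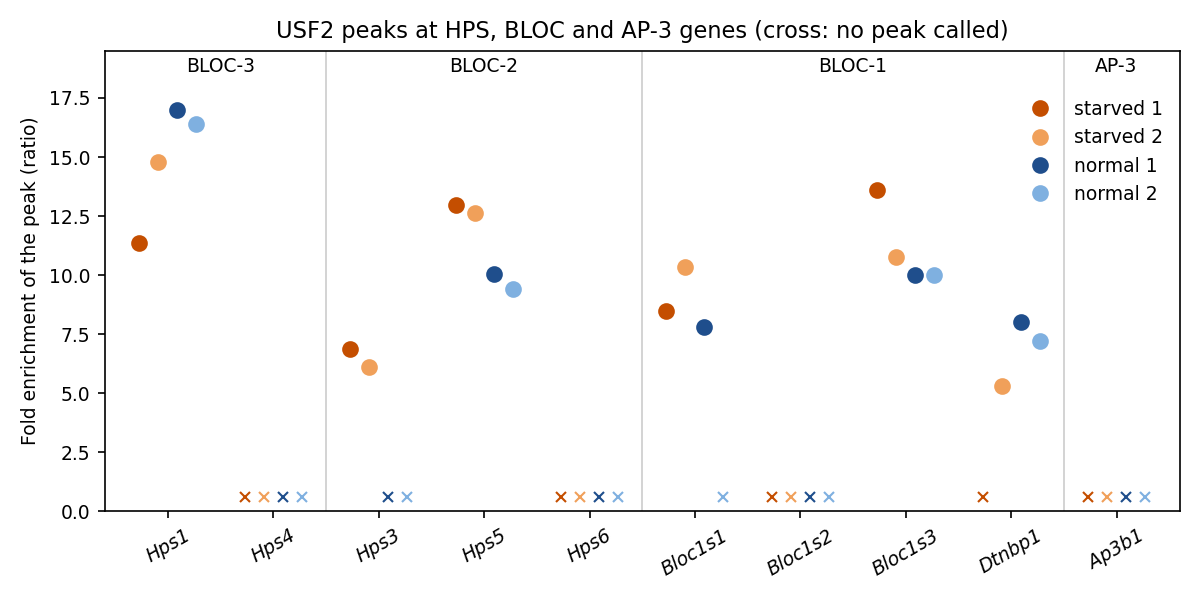
Fold enrichment (ratio, vertical axis) of the USF2 peak at each gene in each list, with genes grouped by complex along the horizontal axis and starved lists to the left of normal lists; a cross marks a list with no call. Hps1 reaches 17.0, Hps5 and Bloc1s3 lie between 9.41 and 13.6 in all 4 lists, and Hps4, Hps6, Bloc1s2 and Ap3b1 have crosses only.

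Hps5 encodes a subunit of BLOC-2, the complex that targets carriers to melanosomes, and its span is chr7:46760466-46796065. It had fold enrichments of 13.0 and 12.6 in the starved lists, and 10.04 and 9.41 in the normal lists. The ranks by q-value were 60 of 825 and 60 of 1186 in the starved lists, and 176 of 1645 and 248 of 2124 in the normal lists. Pileups were 20 and 19 reads in the starved libraries, and 15 and 14 reads in the normal libraries. Both starved pileups were thus above both normal ones, but the lists differ in peak width and background, and the difference in this gene was not tested.

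The place of the Hps5 summit differed between the starved and the normal lists, which was noticed after the values had been seen. The narrowest peak also differed by condition, at 306 bp in the starved and 152 bp in the normal lists. The part of this calling difference in the shift was not tested, so the shift is not assigned to starvation. Both starved summits were at the same base, 90 bp upstream of the transcript start of the promoter window. The normal summits lay 134 and 128 bp downstream of it. The annotated gene span begins upstream of that transcript start (46796065 against 46795881). All 4 summits were inside the span, 94 bp from its start in both starved lists, and 318 and 312 bp in the normal lists. The mean starved summit was thus 221 bp from the mean normal summit, while replicates were 0 bp apart in the starved and 6 bp apart in the normal lists. Of 201 other regions at genes called in all 4 lists, 1 had a shift at least as large (0.498%), and the median shift over those regions was 28.0 bp. The peaks themselves overlapped almost wholly, with widths of 529 and 581 bp in the starved and 584 and 532 bp in the normal lists. In each normal list 3 peaks were at least that wide, Hps5 included, against a median width of 152 bp in normal list 1 and 153 bp in normal list 2. Each list gives 1 summit per peak, so a second maximum inside these peaks would not be seen.

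Both Hps5 E-boxes lay inside the peak in all 4 lists, but the summit was 99.5 bp from the nearer one in both starved lists, and 323.5 and 317.5 bp from it in the normal lists. Over 130 other regions at genes called in all 4 lists with an E-box in the window, each counted once and without the members' own peaks, the median distance was 24.0 and 25.5 bp in the starved lists and 13.5 bp in both normal lists. A distance at least as large as that of Hps5 was found for 11.5% of these regions in each starved list and for 3.85% in each normal list. The stretch holding both sites is shown from 233 bases upstream of the transcript start to the last base before it (chr7:46795882-46796114, minus strand), with the E-boxes in capitals.
Hps5: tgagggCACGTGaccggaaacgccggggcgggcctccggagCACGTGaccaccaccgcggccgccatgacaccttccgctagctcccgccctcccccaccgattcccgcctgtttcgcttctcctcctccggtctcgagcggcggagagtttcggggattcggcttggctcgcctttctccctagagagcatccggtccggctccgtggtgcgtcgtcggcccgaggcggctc
Gtf2h1, which encodes a core subunit of the transcription and DNA repair factor TFIIH, is transcribed in the opposite direction from position 46796094. Its start was 123 bp from both starved summits, and 347 and 341 bp from the normal summits. The E-boxes also stand at its promoter, the first of them beginning 26 bases before its start and the second at base 10 after it. The region therefore cannot be assigned to Hps5 or Gtf2h1 alone.

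Hps3, another BLOC-2 subunit (span chr3:19995945-20035334), was called in both starved lists and in neither normal list, as were 0.557% of protein-coding genes. Its fold enrichments were 6.89 and 6.12, at ranks 287 of 825 and 483 of 1186, with −log10 q of 5.92 and 4.38. The pileups were 11 and 9 reads, which places it among the weaker member peaks. The summits were 57.5 and 14.5 bp from the E-box. In both normal lists the nearest summit was 1770 kb away. A missing call means that no peak passed the authors' threshold there and does not measure absent binding. Hps6, the remaining BLOC-2 subunit, had its nearest summit at 37.6 and 343 kb in the starved and 37.5 kb in both normal lists.

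Bloc1s3 encodes a BLOC-1 subunit and spans chr7:19505783-19508380. Its fold enrichments were 13.6 and 10.8 in the starved lists, and 10.03 in both normal lists. It ranked 48 of 825 and 95 of 1186 by q-value in the starved lists, and 182 of 1645 and 209 of 2124 in the normal lists. Pileups were 21 and 18 reads in the starved libraries, and 14 reads in both normal ones. Its single E-box begins 8 bases before the transcript start and was between 4.5 and 57.5 bp from the summits. The shift between conditions was 56 bp, and 22.9% of the other regions had a shift at least as large.

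The upstream 250 bases of Bloc1s3 (chr7:19508371-19508620, minus strand) are shown with the E-box in capitals.
Bloc1s3: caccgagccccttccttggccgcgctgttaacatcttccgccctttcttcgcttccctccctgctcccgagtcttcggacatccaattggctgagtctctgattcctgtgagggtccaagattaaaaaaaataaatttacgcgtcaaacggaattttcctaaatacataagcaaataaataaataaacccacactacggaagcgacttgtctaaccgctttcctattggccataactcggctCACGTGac
Trappc6a, which encodes a subunit of the TRAPP tethering complexes of vesicle transport, starts on the other strand close by. Its nearest end was 315 and 347 bp from the starved summits, and 285 and 265 bp from the normal summits. Its own promoter window lies beyond the Bloc1s3 E-box and holds no CACGTG. The peak cannot be assigned to Bloc1s3 or Trappc6a alone by position.

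**Figure D3:**
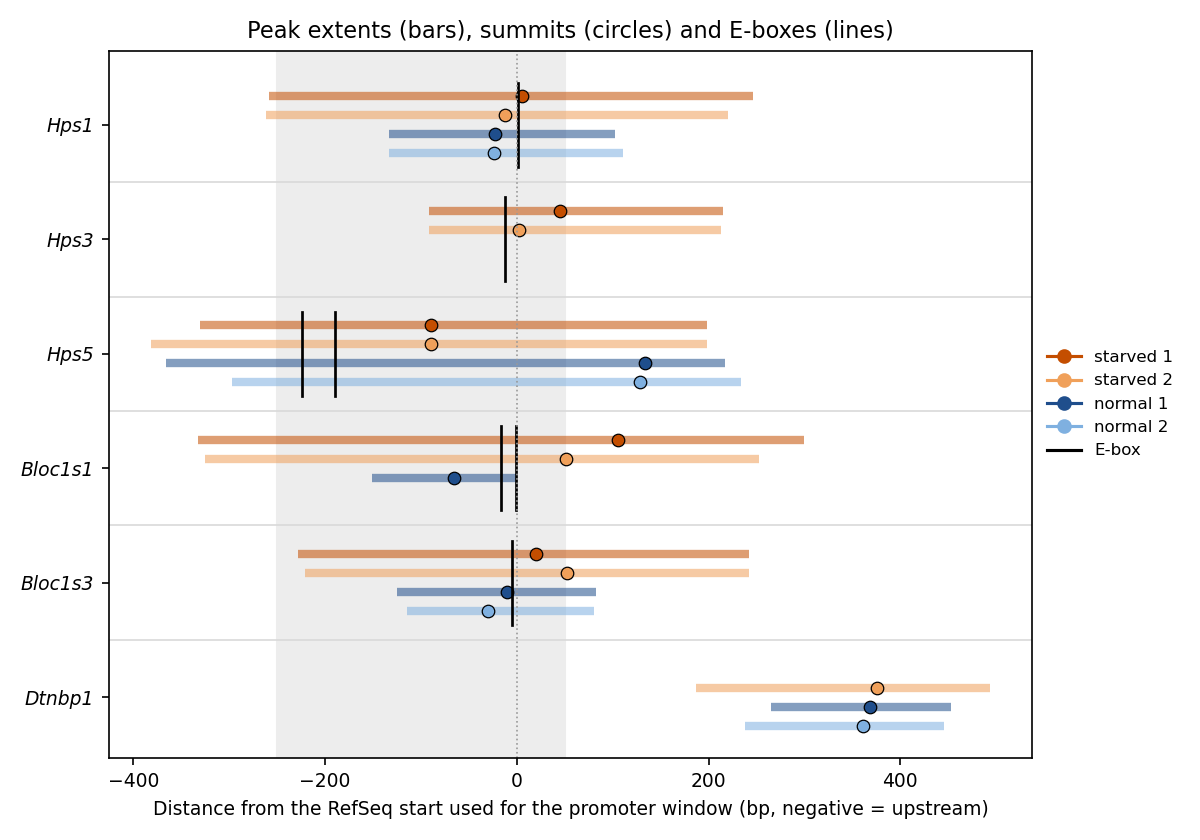
Peak extents (bars) and summits (circles) at the 6 called genes by distance from the transcript start of the promoter window (bp, negative is upstream), with starved lists above normal lists, E-boxes as black lines and the 300-base promoter window shaded. At Hps1, Hps3 and Bloc1s3 the summits gather within 57.5 bp of the E-box, whereas at Hps5 the starved and normal summits are 221 bp apart inside 1 wide peak, and the Dtnbp1 summits lie downstream of the window.

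Bloc1s1 encodes a subunit that BLOC-1 shares with BORC, the complex that couples lysosomes to their motors, and spans chr10:128919914-128923524. It was called in both starved lists, with fold enrichments of 8.47 and 10.3, and in normal list 1, with 7.79, but not in normal list 2. The peak ranked 131 of 825 and 73 of 1186 in the starved lists, and 304 of 1645 in normal list 1. The pileups were 19 and 23 reads in the starved libraries and 11 in normal library 1. The starved peaks were 633 and 579 bp wide and covered both E-boxes. The peak of normal list 1 had the smallest width in its list, 152 bp, and covered 1 of the 2. In normal list 2 the nearest summit was 679 kb away.

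Dtnbp1 encodes dysbindin, a BLOC-1 subunit, and spans chr13:44922079-45002096. It was called in starved list 2 with a fold enrichment of 5.30, and in both normal lists with 8.01 and 7.21. In starved list 2 it ranked 821 of 1186 with a pileup of 7 reads, and in the normal lists 276 of 1645 and 519 of 2124 with 9 and 8 reads. Starved list 1 had its nearest summit 380 kb away. The Dtnbp1 summits were 376 bp downstream of the transcript start in starved list 2, and 368 and 361 bp downstream in the normal lists. They were thus within 15 bp of each other but outside the promoter window, which held no CACGTG. No sequence at these summits was read here.

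Bloc1s2, a further subunit shared by BLOC-1 and BORC, had its nearest summit at 805 and 156 kb in the starved lists, and at 245 and 184 kb in the normal lists. For Ap3b1, the large beta subunit of ubiquitous AP-3, the distances were 2560 and 354 kb in the starved and 1190 kb in both normal lists. For Hps4 they were 624 and 593 kb in the starved, and 615 and 351 kb in the normal lists. Called summits, which lie within 1000 bp by definition, were at most 376 bp from a gene end, and all others were at least 37.5 kb away. Of all protein-coding genes, 4.05% had a summit within 1000 bp of an end in at least 1 list and 7.37% within 5000 bp. With peaks this sparse, the gap says nothing particular about these genes.

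**Figure D4:**
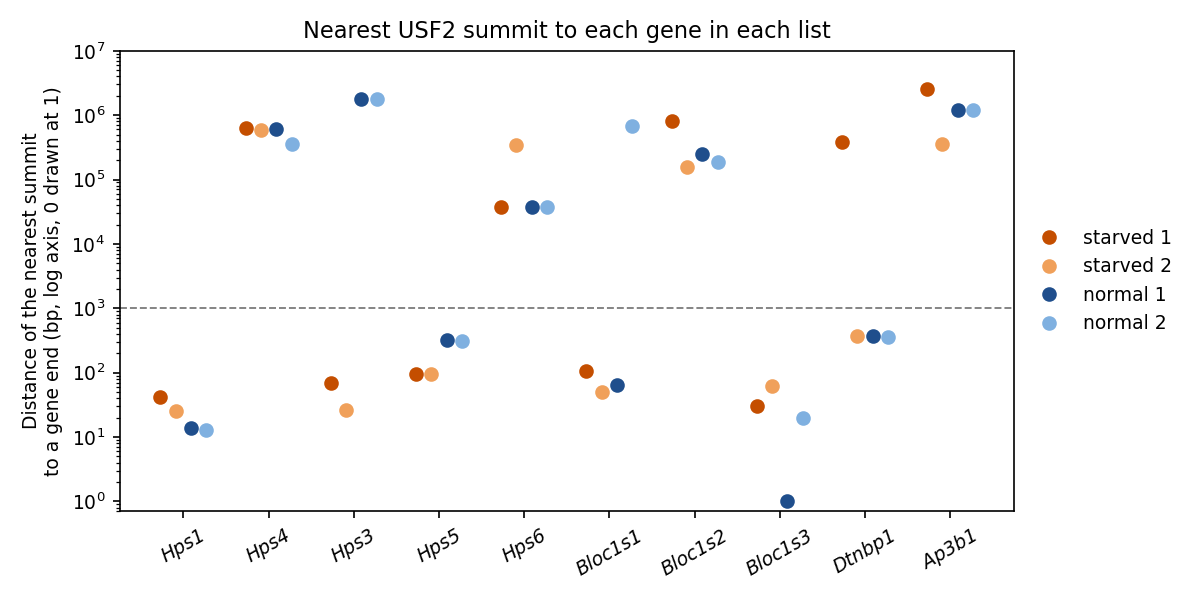
Distance from each gene to the nearest USF2 summit (bp, log axis) in each list, with the 1000 bp limit dashed and starved lists to the left of normal lists. Every gene with a call lies at or below 376 bp in the lists that call it, and no point falls between there and 37.5 kb. A call requires at most 1000 bp by definition.

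Between 4 and 6 members were called in each list, and 2 lists per condition are too few for a test to decide on a difference. There were 5 and 6 in starved lists 1 and 2 (background 2.01% and 2.30% of protein-coding genes), and 5 and 4 in normal lists 1 and 2 (2.54% and 2.68%). The mean was 5.5 ± 0.707 per starved list and 4.5 ± 0.707 per normal list (SD, n = 2 each), a difference of 1 gene. The exact permutation p was 0.67 (two-sided, from all 6 ways to split the lists), and 0.33 is the smallest this design allows. In both starved lists 5 members were called (against 1.78% of protein-coding genes), in both normal lists 4 (2.19%), and none in both normal lists and neither starved list (0.841%). Peak width and list length also differ between the conditions; with lists cut to the shortest length the counts were the same, and the part of peak width was not tested.

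Some peaks of replicate lists had an identical start or end coordinate. This held for 3 of the 5 members called in both starved lists (Hps3, Hps5 and Bloc1s3) and for 1 of the 4 called in both normal lists (Hps1). Over all protein-coding genes called in both lists of a condition the share was 15.1% of 390 in the starved and 25.2% of 480 in the normal pair. Its part in the calls was not tested.

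**Figure D5:**
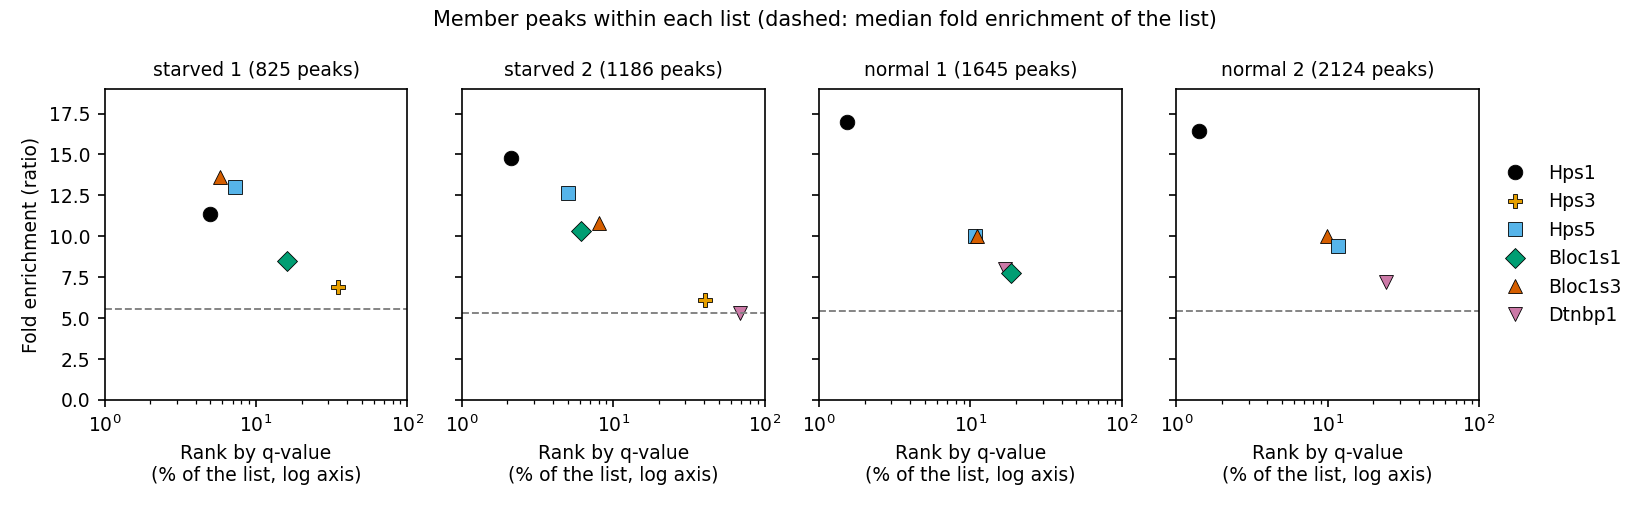
Fold enrichment (ratio) of each called gene against its rank by q-value as a percentage of its list (log axis), 1 panel per list with starved lists on the left; the dashed line is the median fold enrichment of that list. All member peaks lie above the median fold enrichment of their list. Dtnbp1 in starved list 2 lies closest to it, at 5.304 for the gene against a median of 5.296. By q-value that peak stands in the lower part of its list, at rank 821 of 1186 (69.2%).

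Of 35 other genes of lysosome-related organelles, 1 was called in any list, Vps33a, which belongs to a list of 12 Rab GTPases and their partners. None of the other 4 BLOC-1 subunits, the other 6 AP-3 subunits, 5 subunits of BORC or 8 melanosome proteins had a gene-end peak. With 4.05% of all protein-coding genes called in at least 1 list, these counts are near the background and say nothing particular about the 35 genes. By complex, 1 of 2 BLOC-3, 2 of 3 BLOC-2, 3 of 8 BLOC-1 and 0 of 7 AP-3 genes were called in at least 1 list, members included; with so few genes, 0 is also what that background share would give. Vps33a encodes a core protein of the HOPS and CORVET tethers, and its mutation in the buff mouse gives a pigment and platelet phenotype like that of HPS genes. It was called in all 4 lists, with fold enrichments of 14.8 and 9.72 in the starved and 14.6 and 21.3 in the normal lists, and ranked 27 of 825 and 69 of 1186 in the starved, and 35 of 1645 and 10 of 2124 in the normal lists. Its promoter (chr5:123573018-123573047, minus strand) has 2 E-boxes and is shown for comparison with Bloc1s1.
Vps33a: ggatCACGTGaacgtcccgtCACGTGacgc

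Among genes called in all 4 lists, the one most like each member was sought by the mean absolute difference in percentile of fold enrichment over the 4 lists. For Hps1 it was Clcn7, a lysosomal chloride/proton exchanger, with a difference of 0.556 percentile points against a median of 13.6 over 244 candidates. For Hps5 it was Hoxa4, a homeobox gene, with 1.01 points (median 11.7 over 243). For Bloc1s3 it was Rmc1, with 1.23 points (median 11.6 over 243). The smallest difference among so many candidates lies below their median by construction, so the contrast is no evidence of a special likeness. A close pattern over 4 lists describes rank alone.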

How the data were processed

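Per the labels, USF2 ChIP-seq was done in wild-type MEFs under glucose starvation and in normal culture, with 1 peak list per library. Software listed in the submitters' processing notes was MACS2 (version 2.2.7.1), deepTools (3.5.1) and Bowtie2 (2.5.1), with GRCm38 as genome build; parameters and the use of the inputs as control are not given in the sources used here. Each deposited peak has a fold enrichment (a ratio) and −log10 p and −log10 q values, all from the authors' caller. Input, H3K27Ac and Usf2 KO samples were not analysed here.

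Summits were set against gene spans of the RefSeq table of GRCm38.p6, the build of the lists, and promoter windows and strand came from RefSeq of the same build (windows for 10 of 10 members and 24 of 35 other genes). Ranks use all peaks of a list. The pileup behind each peak is the whole number of reads k for which the fold (k + 1)/(background + 1) and the Poisson tail match the deposited values; every peak matched within 0.001 on the −log10 p scale, and on simulated peaks the true pileup returned for 100% in each list (280 to 290 peaks). Precision is limited by these few reads. Analyses used Python 3.11.15, numpy 2.4.6, pandas 2.3.3 and scipy 1.17.1.

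The members and gene lists were chosen with earlier results of these data known. All members are named, as are genes sharing a member's region, other listed genes with a gene-end peak, and for each member called in all 4 lists the gene with the most like percentiles. No list test was run, since the members were chosen with results in view; counts stand beside the share of all protein-coding genes called. Those genes include some that fibroblasts may not use, which was not tested. The alternatives were distances of 500 and 5000 bp, peak overlap in place of the summit, −log10 q of at least 5, lists cut to 825 peaks, pileups of at least 10 reads, calls inside genes, leaving out each list, a replicate block, other motifs and all annotated genes.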

Additional observations from a re-analysis of the deposited data

How the results depend on the processing

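Hps1, Hps5 and Bloc1s3 were called in all 4 lists under each distance, overlap, q-value, length and pileup setting. The difference of 1 gene between starved and normal lists became 0 with −log10 q of at least 5 (exact permutation test, two-sided, p = 1), where starved list 2 lost Hps3 and Dtnbp1, and stayed at 1 under each distance, overlap, length and pileup setting. With pileups of at least 10 reads Dtnbp1 was called in no list. Leaving out 1 list at a time gave differences of 0.5 to 1.5 genes (exact permutation p = 0.67 to 1), 5 to 6 genes in the starved lists, 4 to 5 in the normal lists, 3 to 4 in every remaining list (Dtnbp1 joined without starved list 1, Bloc1s1 without normal list 2) and 6 in any list. With the replicate number as a block the difference was 1 gene and the exact p was 1, where 2 pairs cannot give less than 0.5. The labels do not say what the number stands for, and same-numbered lists did not deviate together (r = −0.07 over 247 genes). With TCACGTGA in place of CACGTG 3 members held the motif and with GTCACGTG 4, both chosen after seeing the data, and with any CANNTG 6, where 72.1% of protein-coding genes hold CANNTG. Over all annotated genes in place of protein-coding ones, the share called was 0.905% in both starved lists, 1.14% in both normal lists and 0.565% in all 4. The member calls with the fewest reads, 7 to 11, were those at Hps3, at Dtnbp1 and at Bloc1s1 in normal list 1; none of these genes was called in all 4 lists.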

Other observations

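The pair of E-boxes in Bloc1s1 and that in Vps33a have the same distance of 16 bp from centre to centre, and that in Hps5 has 35 bp. This was noticed after the sequences had been read. With the pairs of Bloc1s1 and Vps33a left out and shared promoters counted once, 7 of 165 neighbouring pairs of CACGTG in promoter windows of protein-coding genes were 16 bp apart. This held for 6 of the 65 pairs at genes called in all 4 lists and for 2 of the 75 pairs at genes called in none. These counts are given per group of genes and are not a breakdown of those over all pairs. Those of the 2 groups add up to more than the 7 over all pairs, so the groups are not set against each other. The median distance was 39 bp over all pairs and 33 bp at genes called in all 4 lists. No test was run on this spacing.

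Mlana, which encodes a melanosome protein, had a peak inside the gene in both starved lists and none in the normal lists. The summits lay 1304 and 1261 bp from the nearer gene end. The fold enrichments were 4.42 and 3.53, at ranks 617 of 825 and 1136 of 1186, and rested on 4 and 3 reads. With summits inside genes counted as well, 2.48% of protein-coding genes were called in both starved lists and 10.5% in at least 1 list. Mlana was picked from the 35 other genes, so its peak says nothing particular about melanosome proteins.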
